A study of Mus musculus with 4 samples.

Results

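The forkhead genes encode transcription factors that bind DNA through a shared winged-helix domain, and each carries the symbol Fox, a subfamily letter and a number. All autosomal protein-coding genes of the GENCODE vM1 annotation of the mouse genome (build mm9) with such a symbol were taken, which gave 40 of 21418 autosomal protein-coding genes. Their accessible regions were those with the centre within 2.5 kb of an annotated transcription start of a Fox gene, or with a Fox start as the nearest protein-coding start. This rule assigned 220 of the 41797 autosomal E9.5 regions and 196 of the 45648 from E10.5. With the starts of all gene types counted, non-coding ones included, it assigned 125 and 109. Of these, 31.2% and 18.3% shared no base with a region of the other list, against 30.1% and 35.0% over all regions. X-linked Foxo4, Foxp3 and Foxr2 lie outside the rule, as does Foxl1 on chromosome 8, which this annotation holds as a pseudogene.

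Open chromatin was mapped with ATAC-seq, an assay in which transposase cuts exposed DNA and tags it for sequencing, using wild-type NMRI mouse embryos. At either stage, 2 replicates were prepared, each from the forelimb bud pair of a single embryo, and the authors merged them into 1 region list per stage. The earlier samples are titled E9.5, although the protocol states E9.75, and they retained adjacent trunk, whereas the E10.5 protocol and source name forelimb buds alone while the tissue label adds hindlimb buds. In every difference below, stage and trunk tissue cannot be told apart, and no value per embryo was used, so no test was made and the sequencing depth is unknown.

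Forkhead proteins of the Foxa group can bind nucleosomal DNA and open it, whereas other members act mainly as signal-dependent activators or as repressors. Foxc and Foxf genes are known for roles in mesoderm, blood vessels and mesenchyme, Foxd3 in neural crest, Foxa2 in endoderm, notochord and floor plate, and Foxo proteins as targets of the insulin and Akt pathway. Foxp proteins dimerise and repress transcription, and several Fox genes act in limb mesenchyme and in the somites beside the limb field.

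Each region carries the score that the authors deposited, which is 10 times the negative log10 of the best replicate p-value, with 3100 as its usual upper limit. Because it grows with depth, stages are compared by the percentile of the score within its own list. Scores printed side by side for both stages describe each list, and a lower score at E10.5 can go with a higher percentile. A region was called stage-specific when it shared no base with any region of the other list, and shared otherwise. Regions centred no more than 2.5 kb from a start are termed promoter-proximal, and the rest distal. Percentages carry 95% Wilson intervals, which cover counting error alone and treat regions as independent. In whole tissue, a region held by fewer cells and a region less accessible in each cell cannot be told apart.

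Fox regions were more often stage-specific at E9.5 than at E10.5. Among the 220 from E9.5, 84 were stage-specific (38.2%, 32.0 to 44.8%), while the share over all autosomal E9.5 regions was 30.1%. At E10.5, 55 of 196 were stage-specific (28.1%, 22.2 to 34.7%), against 35.0% over all regions. With the starts of all gene types counted, the Fox shares were 31.2% and 18.3%. The E9.5 share was then near that of all regions, so its excess depended on leaving out non-coding starts. The order of the stages for the Fox genes was thus the opposite of that for the whole lists, although the intervals of the Fox shares overlap between the stages. Most of this lay away from starts. Among distal Fox regions, 76 of 173 were E9.5-specific (43.9%, 36.7 to 51.4%), near the 40.4% of all distal regions, and 53 of 151 were E10.5-specific (35.1%, 27.9 to 43.0%), below the 49.4% of all distal regions. Near starts, 8 of 47 Fox regions were E9.5-specific (17%, 8.89 to 30.1%, all 13.4%) and 2 of 45 were E10.5-specific (4.44%, 1.23 to 14.8%, all 5.2%), so both shares were close to the background. At E9.5, 21.4% of the Fox regions were promoter-proximal, against 37.9% of all regions. The part of this mix of classes in the E9.5 excess was not tested. Shares of gene groups below were not split by class and are set against both classes together.

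With coding starts alone counted, the family was rich in distal regions. The promoter-proximal share was not taken with the starts of all gene types, where only 125 and 109 regions were assigned. The richness may therefore depend on leaving out non-coding starts. Among Fox regions, 21.4% of those from E9.5 were promoter-proximal (16.5 to 27.2%), as were 23.0% from E10.5 (17.6 to 29.3%), while over all autosomal regions the shares were 37.9% and 32.6%. A Fox gene also had more genome to itself. The stretch nearer to its starts than to those of any other protein-coding gene had a median of 101.6 kb over the 40 genes, with a range from 5.52 kb for Foxh1 to 793 kb for Foxp1, and 44.8 kb over all genes. Across the 40 genes, the number of regions went with the length of this stretch (Spearman rho 0.732 for E9.5 and 0.666 for E10.5). Regions were assigned by the nearest start, the same rule that sets the stretch, so a positive rho is partly built in. Points of this comparison share their library, and the rho is given as a description.

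**Figure D1:**
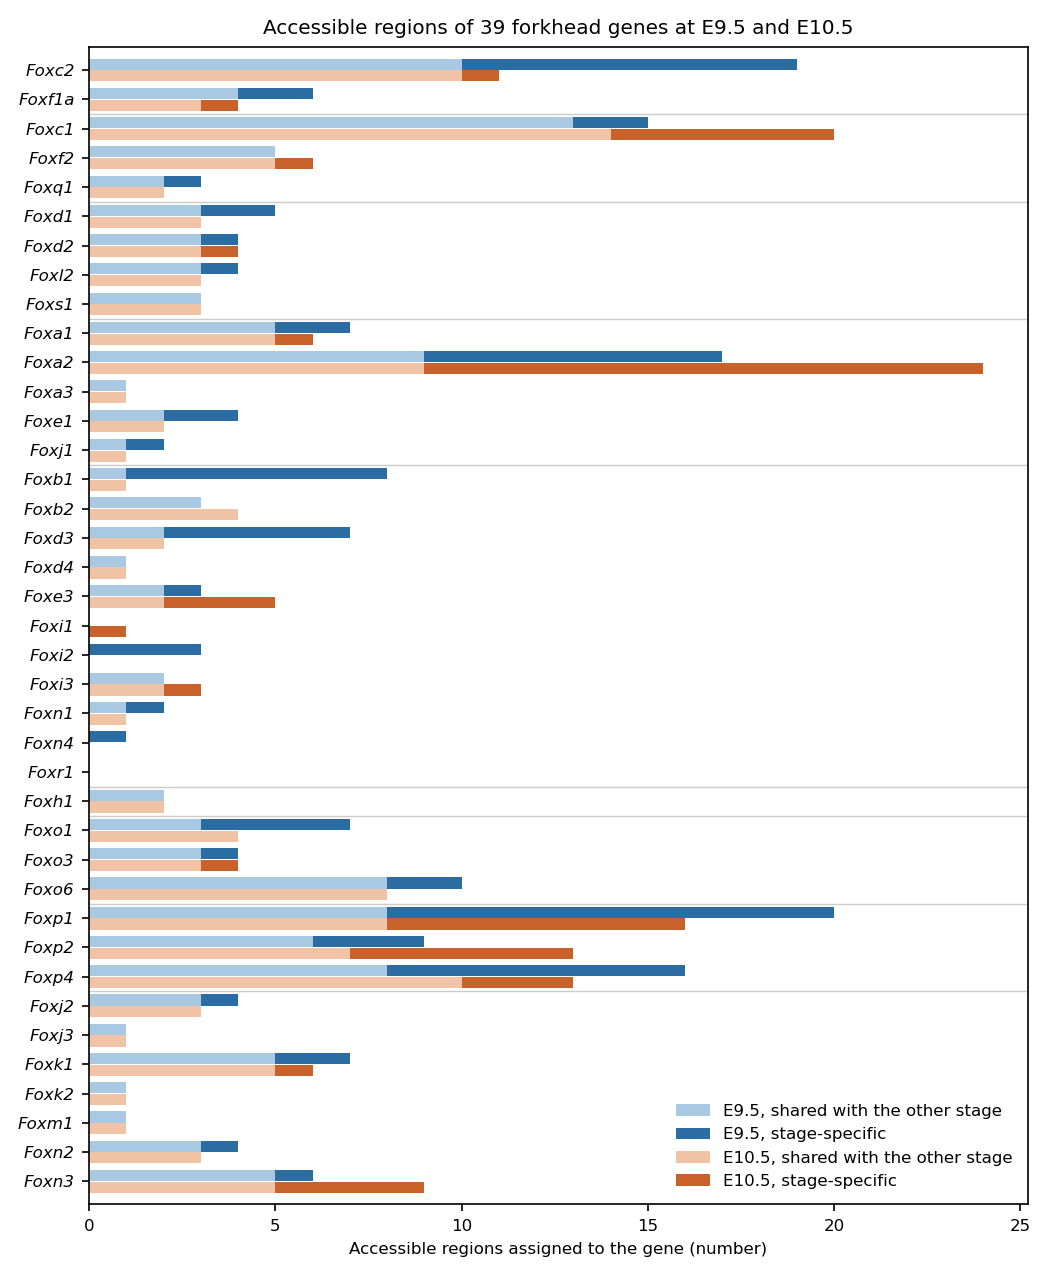
Number of accessible regions (horizontal axis) assigned to each of 39 Fox genes, with 1 bar per stage, split into shared (light) and stage-specific (dark) regions, and gene groups divided by lines. The longest bars belong to Foxa2 (24 regions at E10.5) and Foxp1 (20 at E9.5), and Foxr1 has no bar.

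The regions were unevenly spread over the family. Foxa2, Foxp1, Foxc1, Foxc2, Foxp4 and Foxp2 held 96 of the 220 regions at E9.5 and 97 of the 196 at E10.5. At the other end, 5 genes had a single region in each list, and Foxr1 had none. E9.5-specific regions outnumbered E10.5-specific ones for 20 genes, the converse held for 9, and 11 had equal numbers, Foxr1 among them. The same counts over all genes were not taken, so this split cannot be read as a trait of the family. The excess towards E9.5 was greatest for Foxc2 (9 against 1) and Foxb1 (7 against 0), followed by Foxd3 (5 against 0) and Foxp4 (8 against 3). Towards E10.5 it was greatest for Foxa2 (15 against 8), then for Foxc1 (6 against 2), and then for Foxn3 (4 against 1) and Foxp2 (6 against 3). Without Foxa2, the E10.5-specific share of the family was 23.3%, and the E9.5-specific share was 37.4%.

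Starts of Fox genes were mostly open at both stages. A region lay within 2.5 kb of a start at both stages for 33 of the 40 genes, while 62.0% of all autosomal protein-coding genes had this. Foxb1, Foxe1 and Foxi2 had such a region at E9.5 alone, a state held by 3.85% of all genes. No Fox gene had one at E10.5 alone, against 1.08% of all genes. Foxi1, Foxn1, Foxn4 and Foxr1 had none at either stage, against 33.1% of all genes. These 7 genes belong to ectodermal, neural or endodermal lineages in textbook terms, apart from Foxr1, whose role is left aside here. Other genes of these lineages went the other way. A start region was present at E10.5 for 6 of the 12 genes grouped below under ectoderm, nervous system and neural crest. The same held for 4 of the 5 endodermal and floor plate genes, so lineage does not set a closed start apart. In each list, 7 promoter-proximal regions of 6 Fox genes were also within 2.5 kb of another coding gene's start. For 5 of them that start was the nearer one, so they may not mark the Fox start itself.

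Start sequences of the family were rich in CpG dinucleotides. In the window of 250 bp either side of the start, the ratio of observed to expected CpG had a median of 0.797 over the Fox genes and 0.597 over all genes, and GC content had medians of 67.0% and 57.5%. The CpG ratio had a median of 0.850 for the 33 genes open at both stages, 0.680 for the 3 open at E9.5 alone and 0.480 for the 4 open at neither. Over all genes in these states the medians fell in the same order, at 0.780, 0.494 and 0.183. Among Fox genes, 13 of 40 (32.5%) had their coding sequence in a single exon, while this held for 17% of all genes. The 150 bp before the start are shown for the 7 genes without a start region at E10.5, since these are the starts that set the count above. They are written 5′ to 3′ on the strand of the gene, from mm9, with every CpG in capitals.
Foxb1, chr9:69608748-69608897, minus strand: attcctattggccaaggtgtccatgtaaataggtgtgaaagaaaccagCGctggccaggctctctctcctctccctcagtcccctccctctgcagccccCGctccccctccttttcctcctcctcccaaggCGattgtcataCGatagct
Foxe1, chr4:46356331-46356480, plus strand: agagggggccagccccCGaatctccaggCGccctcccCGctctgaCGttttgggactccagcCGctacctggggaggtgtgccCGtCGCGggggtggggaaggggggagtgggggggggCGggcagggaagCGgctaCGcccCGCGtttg
Foxi2, chr7:142601900-142602049, plus strand: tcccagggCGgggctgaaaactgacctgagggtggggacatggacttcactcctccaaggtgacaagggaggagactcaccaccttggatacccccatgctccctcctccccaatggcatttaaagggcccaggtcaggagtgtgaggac
Foxi1, chr11:34108090-34108239, minus strand: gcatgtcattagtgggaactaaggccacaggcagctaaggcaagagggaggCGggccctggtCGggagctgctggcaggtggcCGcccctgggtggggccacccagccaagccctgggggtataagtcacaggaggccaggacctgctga
Foxn1, chr11:78200061-78200210, minus strand: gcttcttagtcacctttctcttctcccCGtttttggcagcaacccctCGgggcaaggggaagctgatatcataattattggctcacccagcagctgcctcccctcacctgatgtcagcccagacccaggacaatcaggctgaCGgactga
Foxn4, chr5:114723817-114723966, minus strand: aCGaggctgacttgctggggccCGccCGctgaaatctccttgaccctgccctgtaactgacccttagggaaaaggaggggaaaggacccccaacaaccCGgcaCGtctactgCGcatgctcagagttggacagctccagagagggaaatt
Foxr1, chr9:44248952-44249101, minus strand: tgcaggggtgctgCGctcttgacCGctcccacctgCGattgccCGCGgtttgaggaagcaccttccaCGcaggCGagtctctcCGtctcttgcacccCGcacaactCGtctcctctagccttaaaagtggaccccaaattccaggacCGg
In these stretches, CpG pairs numbered 4 for Foxb1, 13 for Foxe1 and 1 for Foxi2, the genes with a start region at E9.5. They numbered 3 for Foxi1, 3 for Foxn1, 6 for Foxn4 and 11 for Foxr1. Counts of the 2 sets overlap, so the presence of an accessible start did not follow this count among the 7 genes.

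Start regions of the Fox genes stood lower in the E10.5 list than in the E9.5 list. The best score at a start had an E9.5 median of 1089 over 36 genes, with a range of 85.0 to 3100, and an E10.5 median of 664 over 33 genes, with a range of 106 to 3100. Over all genes with a start region, the medians were 1204 and 845. Of the 33 genes open at both stages, 27 had a lower percentile at E10.5 and 6 a higher one, with a median difference of -4.67 percentile points. Over all 13273 such genes the median difference was -1.40 points, and 59.2% were lower. A difference below -10 points was found for 15 of the 33 Fox genes and for 20.9% of all genes. The order of the genes was largely kept, with a Spearman rho of 0.871 across the 33 genes between the stages.

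**Figure D2:**
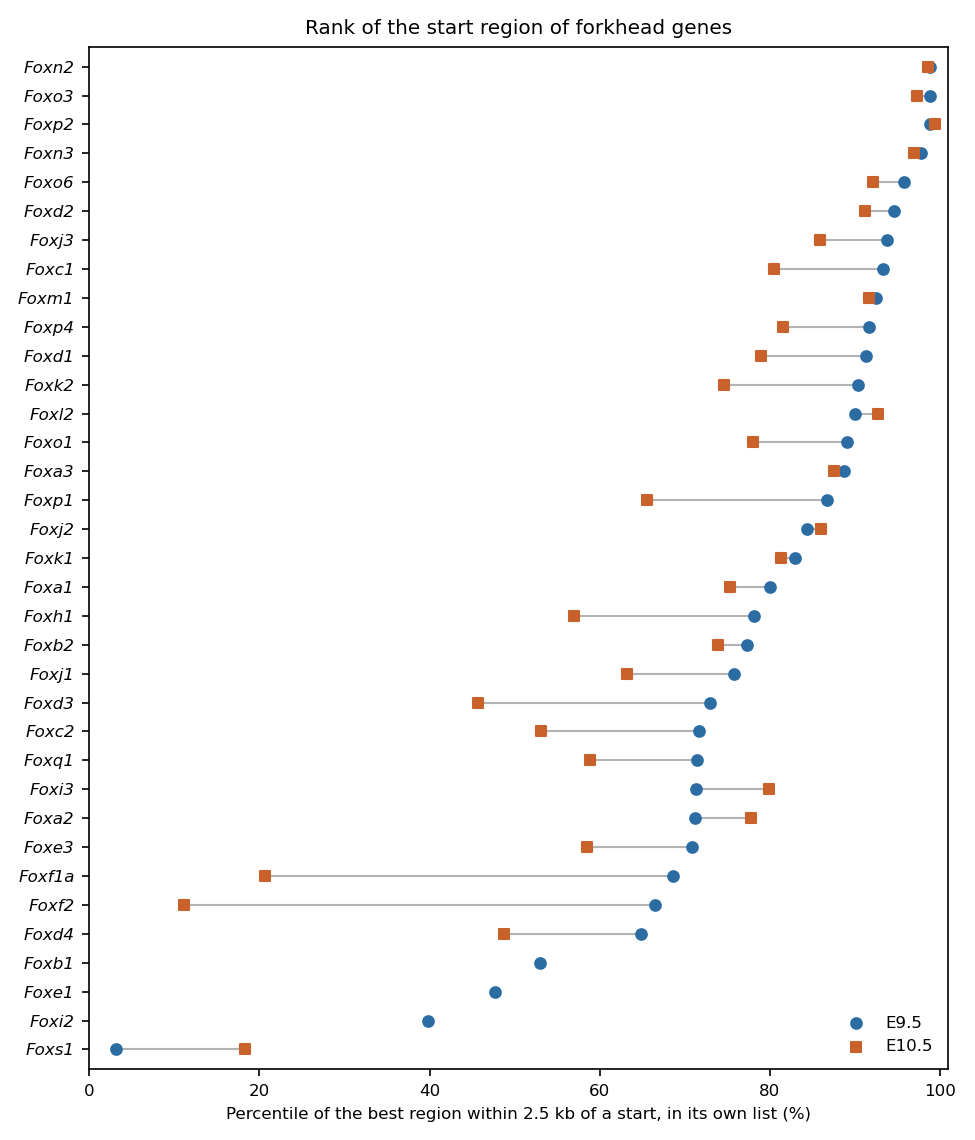
Percentile of the best region within 2.5 kb of a start in its own list (horizontal axis, %) for 35 Fox genes with such a region, at E9.5 (circles) and E10.5 (squares), ordered by the E9.5 value. The widest gaps belong to Foxf2 and Foxf1a, and Foxb1, Foxe1 and Foxi2 have a circle alone.

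Foxf1a and Foxc2 lie 31.8 kb apart on chromosome 8, and with Foxl1, 11.8 kb beyond Foxc2, they form a conserved cluster. Foxf1a is known for its role in lateral plate and gut mesenchyme, and Foxc2 for roles in paraxial mesoderm and in lymphatic and blood vessels. Of the 25 regions assigned to this pair at E9.5, 11 were stage-specific (44.0%, 26.7 to 62.9%, all regions 30.1%). At E10.5, 2 of 15 were (13.3%, 3.74 to 37.9%, all regions 35.0%), and both intervals hold the share of all regions. The E9.5-specific regions outnumbered the E10.5-specific ones for both genes, 9 against 1 for Foxc2 and 2 against 1 for Foxf1a.

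The Foxc2 start (gene at chr8:123640071-123642792, plus strand) had a region that scored 655 in the E9.5 list and 262 in the E10.5 list, at percentiles 71.7 and 53.1. Its 19 E9.5 regions reached 200.1 kb downstream of the start, and of the 9 that were E9.5-specific, the strongest lay 179 kb downstream with a score of 427. The only E10.5-specific region, 210.2 kb downstream, scored 172. A region 185 kb downstream (chr8:123824188-123826716 at E9.5) stood out among the shared ones, with 620 at E9.5 and 876 at E10.5. Its percentile differed by 12.9 points in favour of E10.5, whereas that of the start differed by -18.7 points. Of the 10 shared E9.5 regions of Foxc2, 8 had the lower percentile at E10.5, and besides the region just given, one 58.3 kb downstream had the higher, with scores of 109 and 409.7.

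Foxf1a (chr8:123608286-123610851, plus strand) had a start region of 559 at E9.5 and 126 at E10.5. Its percentile went from 68.7 to 20.7, a difference of -48.0 points, the second largest among the 33 genes. A shared region 144 kb upstream (chr8:123463842-123464999 at E9.5) scored 458 at E9.5 and 100.2 at E10.5, a difference of -56.8 points and the third lowest when each shared E9.5 Fox region was set against its best-scoring E10.5 partner. An E9.5-specific region of 143, counted here with Foxc2, had its centre 509 bp from the start of Foxl1, and a shared region 9.30 kb downstream of Foxc2 (757 and 302) was also within 2.5 kb of that start. All distal regions of this pair, 23 at E9.5 and 13 at E10.5, lay within Gm20388, a predicted gene model of 4435 kb that spans the whole cluster, so an intronic position in it says little.

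Foxq1, Foxf2 and Foxc1 form the related cluster on chromosome 13, with 67.6 kb between the starts of Foxq1 and Foxf2 and 181 kb between those of Foxf2 and Foxc1. Foxc1 overlaps Foxc2 in its roles in somites, eye and vessels, Foxf2 acts in mesenchyme of gut and palate, and Foxq1 is known from hair and epithelia. Here 3 of 23 regions were E9.5-specific (13%, 4.54 to 32.1%, all regions 30.1%). At E10.5, 7 of 28 were stage-specific (25%, 12.7 to 43.4%, all regions 35.0%), and both intervals hold the share of all regions. The E10.5-specific count was thus the larger one, unlike in the chromosome 8 cluster, although the intervals of both clusters overlap at either stage.

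Foxc1 (chr13:31898515-31902504, plus strand) had 15 regions at E9.5 and 20 at E10.5. Its start region scored 2046 and then 744, with percentiles of 93.3 and 80.4. The gene downstream of Foxc1 is Gmds, which encodes an enzyme of fucose synthesis and spans chr13:31911448-32430483. Within Gmds lay 9 Foxc1 regions at E9.5 and 12 at E10.5, of which 1 and 4 were stage-specific. The highest-scoring E10.5-specific one lay 228 kb downstream of the Foxc1 start (chr13:32125679-32126697) and scored 419. A shared Gmds region 47.1 kb from the start was singled out after its values were seen. It lay at chr13:31945100-31946157 at E9.5 with a score of 222 and reached 1750.03 in the later list, which exceeded the E10.5 start of Foxc1 itself. Its percentile was 49.8 points higher at E10.5, from 44.9 to 94.6.

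Foxf2 (chr13:31717685-31723272, plus strand) showed the largest difference of any start. The score of 500.8 at the earlier stage compared with 106 at the later, and its percentile went from 66.5 to 11.1, a difference of -55.4 points. The E10.5 score was near the low end of the list, where a score of 60 corresponds to the weak p-value of 1e-06. All 5 of its E9.5 regions were shared, and an E10.5-specific region of 412 lay 85.1 kb downstream, between Foxf2 and Foxc1. Foxq1 had a start region of 646 at E9.5 and 313 at E10.5, and its neighbour A530084C06Rik has a start within 2.5 kb of the same region.

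**Figure D3:**
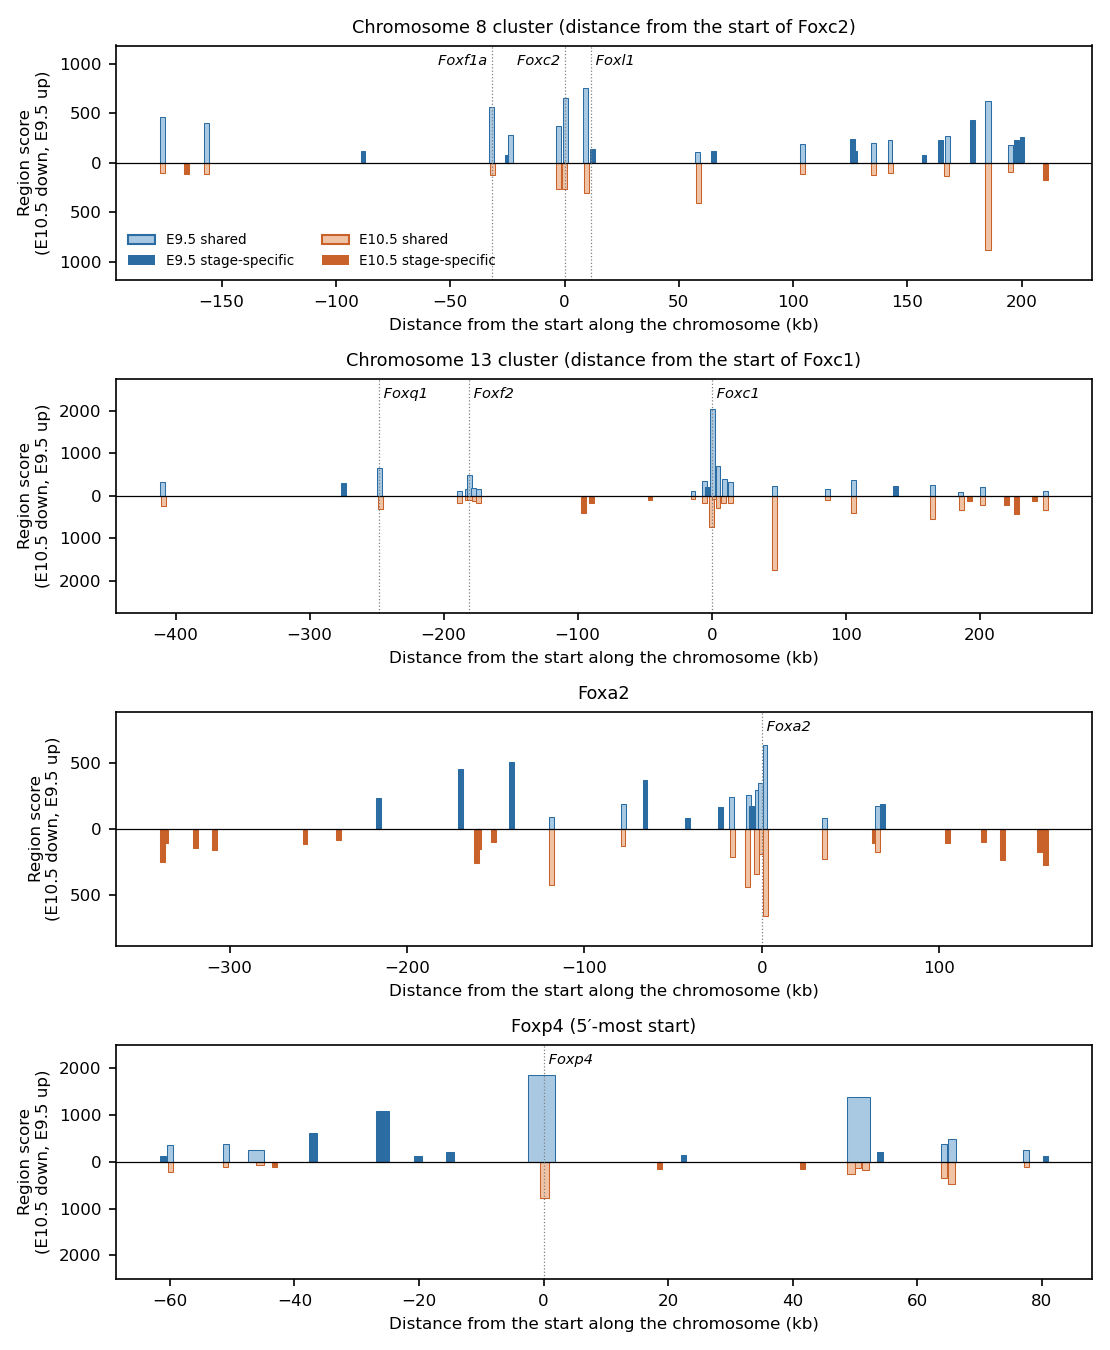
Regions around the chromosome 8 cluster, the chromosome 13 cluster, Foxa2 and Foxp4, by distance along the chromosome from the named start (kb), with score upward for E9.5 and downward for E10.5. Light bars are shared and dark bars stage-specific, narrow regions are drawn at a fixed minimum width and dotted lines mark starts. Foxa2 and Foxp4 are on the minus strand, so downstream is to the left. Around Foxa2 the dark bars of the stages stand at different distances, and near Foxc1 the E10.5 bar 47.1 kb from the start is taller than that of the start.

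Of the other mesodermal and mesenchymal genes, Foxd1, of kidney stroma, had a start score of 1823 at E9.5 and 693 at E10.5. Foxd2, its close relative, had 2254 and 1347. Foxl2, of ovary and eyelid, was among the 6 genes whose percentile was higher at E10.5, by 2.72 points, with 1684 and 1501. Foxs1, expressed in crest-derived and perivascular cells, had the weakest start region of the family at E9.5, with 85.0 against 121 at E10.5, and the largest gain in percentile, 15.2 points. The 4 genes together had 4 of 16 regions specific to E9.5 (25%, all regions 30.1%) and 1 of 13 to E10.5 (7.69%, all regions 35.0%). The strongest of these stage-specific regions lay 38.7 kb downstream of Foxd2 with a score of 497 at E9.5.

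Endodermal and floor plate genes had the highest E10.5-specific share of the groups. Over Foxa1, Foxa2, Foxa3, Foxe1 and Foxj1, 13 of 31 regions were E9.5-specific (41.9%, 26.4 to 59.2%, all regions 30.1%). At E10.5, 16 of 34 were stage-specific (47.1%, 31.5 to 63.3%, all regions 35.0%), and both intervals hold the share of all regions. Of the 16, 15 belonged to Foxa2. That gene had the most regions of the family over both lists, 17 in the earlier and 24 in the later list, in a stretch of 514 kb.

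Around the Foxa2 gene (chr2:147868613-147872705, minus strand), shared and E9.5-specific regions lay near the gene, the nearest E10.5-specific region was 63.4 kb away, and the regions farthest from the gene were all stage-specific. The best region at a start scored 635 at E9.5 and 656 at E10.5, and its percentile was 6.63 points higher at E10.5. A shared region 117 kb downstream (chr2:147753678-147754461 at E9.5) had the largest gain of the shared E9.5 Fox regions over their best-scoring E10.5 partners, from 90.6 to 423 in score and 63.0 points in percentile. Beyond it, no region was shared on that side of the gene. The E9.5-specific regions there lay 140 kb (505), 168 kb (454) and 215 kb (233) downstream. The E10.5-specific ones lay between 150 kb and 336 kb downstream, and the strongest, 159 kb from the start, scored 259.7. Upstream, 5 further E10.5-specific regions lay between 104 kb and 160 kb away, where the E9.5 list had none for Foxa2. Some of these distant regions lay at non-coding starts, which the rule leaves out. The E10.5-specific ones 336 kb and 334 kb downstream were centred 1373 bp and 339 bp from a start of A530006G24Rik. The one 104 kb upstream was 303 bp from a start of snoU85. The E9.5-specific region 168 kb downstream was 2210 bp from a U6 start.

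The centres of a pair of Foxa2 regions are shown because they are the strongest stage-specific distal Fox regions of either list that hold TGTTTAC, a core of the forkhead recognition sequence. They are followed by the strongest stage-specific distal region of each list, near Foxp4 at E9.5 and near Foxe3 at E10.5. All are 300 bp of mm9, plus strand, 5′ to 3′, and capitals mark the forkhead core TGTTTAC, the Meis and Pknox motif TGACAG and the homeodomain core TAATTA, on either strand.
Foxa2, E9.5 region, chr2:147731509-147731808: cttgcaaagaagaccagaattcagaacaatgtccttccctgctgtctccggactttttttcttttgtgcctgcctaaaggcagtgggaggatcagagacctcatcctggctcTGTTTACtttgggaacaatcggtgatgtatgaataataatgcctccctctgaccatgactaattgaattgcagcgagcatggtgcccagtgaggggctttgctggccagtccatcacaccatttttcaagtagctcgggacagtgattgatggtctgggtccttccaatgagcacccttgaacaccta
Foxa2, E10.5 region, chr2:147711961-147712260: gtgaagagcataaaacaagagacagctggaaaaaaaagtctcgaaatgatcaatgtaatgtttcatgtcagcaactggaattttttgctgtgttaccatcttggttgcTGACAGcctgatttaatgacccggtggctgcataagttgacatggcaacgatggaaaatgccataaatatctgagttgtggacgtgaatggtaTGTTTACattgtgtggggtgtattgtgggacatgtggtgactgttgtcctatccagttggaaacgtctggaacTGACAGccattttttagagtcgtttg
Foxp4, E9.5 region, chr17:48035599-48035898: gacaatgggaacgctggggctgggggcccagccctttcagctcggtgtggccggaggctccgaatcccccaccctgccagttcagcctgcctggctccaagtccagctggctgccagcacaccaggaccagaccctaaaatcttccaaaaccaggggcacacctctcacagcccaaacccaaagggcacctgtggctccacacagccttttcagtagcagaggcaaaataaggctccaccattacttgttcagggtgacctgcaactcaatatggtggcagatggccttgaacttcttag
Foxe3, E10.5 region, chr4:114615160-114615459: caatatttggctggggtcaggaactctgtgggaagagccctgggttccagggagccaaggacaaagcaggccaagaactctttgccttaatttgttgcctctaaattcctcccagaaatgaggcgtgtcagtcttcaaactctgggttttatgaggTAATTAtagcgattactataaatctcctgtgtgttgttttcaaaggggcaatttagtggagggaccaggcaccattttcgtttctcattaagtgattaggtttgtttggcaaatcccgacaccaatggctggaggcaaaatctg
The E9.5 Foxa2 centre held 1 TGTTTAC, and the E10.5 centre held 1 TGTTTAC and 2 TGACAG. The Foxe3 centre held 1 TAATTA, and the Foxp4 centre held none of the 3 motifs. A match describes the letters of the window and no more.

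In the window of 150 bp either side of the centre, TGTTTAC on either strand was present in 15 of 220 Fox regions of the E9.5 list (6.82%, 4.18 to 10.9%, all regions 3.46%) and in 10 of 196 of the later list (5.10%, 2.79 to 9.14%, all regions 3.65%). Of the distal Fox regions, 11 of 173 (6.36%, 3.59 to 11.0%) and 10 of 151 (6.62%, 3.64 to 11.8%) held it, against 4.50% and 4.54% of all autosomal distal regions. Among the promoter-proximal ones it was in 4 of 47 (8.51%, 3.36 to 19.9%, all 1.75%) and in 0 of 45, for which the interval reached 7.87% (all 1.83%). TATTTAC, a weaker forkhead core, was in 2.31% and 3.31% of the distal Fox regions, against 3.06% and 3.87% of all. GGCGCC, a GC-rich element bound by SMAD complexes, was in 23 of 47 promoter-proximal Fox regions at E9.5 (48.9%, 35.3 to 62.8%) and 17 of 45 at E10.5 (37.8%), and in 24.5% and 24.8% of all promoter-proximal regions. Its distal shares were 10.4% and 10.6%, against 5.87% and 4.56%. The promoter-proximal Fox windows had a median GC content of 67.8% (E9.5) and 67.1% (E10.5), against 63.8% for all promoter-proximal regions of either list, and its part in the GGCGCC shares was not tested. TAATTA was in 12 of 53 E10.5-specific distal Fox regions (22.6%) and in 16.1% of all E10.5-specific distal regions, and TGACAG shares lay within 4 points of the background in the distal regions of either list, at 22.0% and 24.5% against 25.4% and 23.8%.

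The other genes of this group had simpler patterns. Foxa1, which acts with Foxa2 in gut endoderm, had a start score of 1008 at E9.5 and 587 at E10.5, and a further shared region 6.87 kb downstream scored 865 and 723. Foxa3, of liver and gut, had a single region, of 1575 and 1081, which is shared with the start of Sympk. Foxj1, the regulator of motile cilia, had 810 and 363 (362.5) at its start. Foxe1, of the thyroid primordium, had an E9.5-specific region at its start (chr4:46355468-46357939, score 241), and its 2 shared regions lay 66.4 kb and 38.6 kb upstream. At E10.5 the nearest region of that list was 25.9 kb away from the E9.5 start region.

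Genes of ectoderm, nervous system and neural crest had the highest E9.5-specific share. It was 18 of 33 (54.5%, 38.0 to 70.2%, all regions 30.1%), while 6 of 22 were E10.5-specific (27.3%, 13.2 to 48.2%, all regions 35.0%). Over all distal regions the shares were 40.4% and 49.4%. The E9.5 interval holds the former, and the E10.5 interval ends just below the latter. Foxb1 and Foxd3 supplied 12 of the 18. Foxb1, of hypothalamus and neural tube, had 8 regions at E9.5, of which 7 were stage-specific, and 1 at E10.5. Its start region (chr9:69606126-69609297) scored 285 and a second, 1.998 kb upstream, scored 157, and the nearest E10.5 region was 76.0 kb from the former. The region kept at both stages lay 79.0 kb downstream and scored 233 and 257.

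Foxd3, of neural crest, had 7 regions at E9.5 and 2 at E10.5. Its start region scored 695 at E9.5 and 214 at E10.5, with a percentile difference of -27.3 points, and those 5.23 kb and 2.60 kb upstream and 4.28 kb downstream were E9.5-specific, with scores of 161, 251 and 193. Foxi2, of ectoderm and placodes, had 3 regions at E9.5, all stage-specific, and none at E10.5. Its start region (chr7:142601701-142602803) scored 194. These E9.5 scores were modest, since the median over all E9.5 regions was 258.

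Foxb2, a gene of the developing nervous system, scored 878 and 552 at its start. Foxi3, of the otic and pharyngeal region, was 8.595 points higher in percentile at E10.5, with 642 and 728, and had 1 of the 2 E10.5-specific regions near a start, 2.30 kb upstream, with a score of 104. Foxe3, a lens gene, scored 624 and 309 at its start. A region 16.7 kb upstream of it (chr4:114614696-114615924) had the highest score of all E10.5-specific Fox regions, 934, and lies in the interval between Foxe3 and its other neighbour, on the side away from Foxd2, whose start is 17.2 kb from that of Foxe3. Foxd4 had a single region, of 464 and 233. Foxi1 had 1 region in all, E10.5-specific, 38.3 kb downstream with a score of 103. Foxn1, the gene mutated in nude mice, had a shared region 11.1 kb upstream inside Slc13a2. Foxn4, of retina and spinal cord, had 1 E9.5-specific region, of 130.1.

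**Figure D4:**
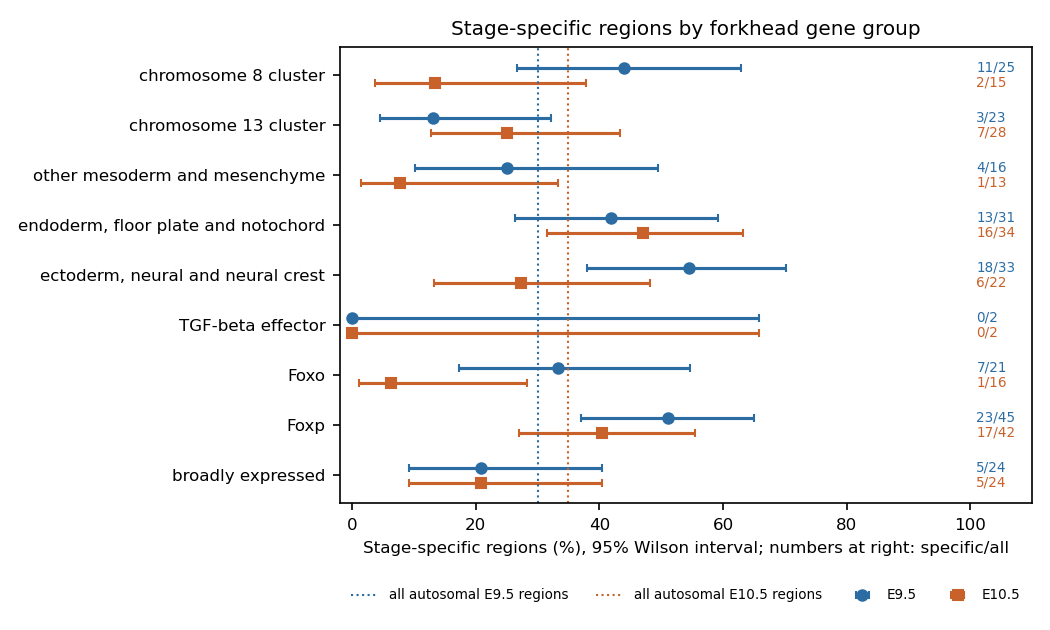
Stage-specific share of the regions of each Fox gene group (horizontal axis, %) at E9.5 (circles) and E10.5 (squares), with 95% Wilson intervals and counts at the right, and dotted lines for the shares over all autosomal regions (30.1% and 35.0%). The circles of the ectodermal and Foxp groups lie farthest to the right, and the squares of 5 of the 9 groups lie below 25%. Promoter-proximal and distal regions are pooled in every share.

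The Foxp genes encode repressors with a leucine zipper, acting in heart, lung, motor neurons and brain. They had 23 of 45 regions specific to E9.5 (51.1%, 37.0 to 65.0%, all regions 30.1%) and 17 of 42 to E10.5 (40.5%, 27.0 to 55.5%, all regions 35.0%). At E9.5 most were distal, 17 of 20 for Foxp1, 6 of 9 for Foxp2 and 13 of 16 for Foxp4. Over all distal regions the shares were 40.4% and 49.4%, and the intervals hold these values. The Foxp genes are all long, with many annotated starts, 10 for Foxp1, 15 for Foxp2 and 9 for Foxp4, so that several intronic regions count as promoter-proximal. Of the 8 E9.5-specific regions near a Fox start, 4 belonged to this subfamily.

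Foxp4 (chr17:48004082-48061594, minus strand) held the strongest E9.5-specific Fox regions. An intronic region 10.4 kb upstream of the nearest of its starts (chr17:48034758-48036741) scored 1081 and was 15.9 kb from the closest E10.5 region, and its centre is the Foxp4 sequence printed above. The next, 0.517 kb downstream of an internal start (chr17:48023924-48025241), scored 617. The best start region scored 1855 at E9.5 and 783 at E10.5. A broad E9.5 region 50.6 kb upstream scored 1383, and 3 separate E10.5 regions of 250.3, 133 and 170.01 overlapped it. In all, 8 of 16 regions were E9.5-specific and 3 of 13 were E10.5-specific.

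Foxp1 (chr6:98875332-99216526, minus strand) had 20 regions at E9.5, of which 12 were stage-specific, and 16 at E10.5, of which 8 were. Its start region scored 1418 and 396, with a difference of -21.2 percentile points. Most of its distal regions lay in its own introns, 11 and 9, or in those of Eif4e3 (5 and 4). E9.5-specific regions at 2 of its starts scored 121 and 105, at low percentiles of the list (17.3 and 9.46).

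Foxp2 (chr6:14851349-15391977, plus strand) differed from its relatives. Its main start scored 3100 at both stages, the limit of the score, and 3 of 9 regions were E9.5-specific while 6 of 13 were E10.5-specific. The strongest of the latter was intronic (chr6:15271109-15272177), scored 921 and had no E9.5 region within 35.3 kb. Another lay 1.84 kb past an internal start (chr6:15327952-15329111) and scored 483. A shared intronic region 28.5 kb downstream of an internal start (chr6:15354580-15355747 at E9.5) was far lower at E10.5, with 569 and 82.1, a difference of -66.1 points.

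Foxo proteins, which Akt phosphorylates and keeps out of the nucleus, had 7 of 21 regions specific to E9.5 (33.3%, 17.2 to 54.6%, all regions 30.1%). They had 1 of 16 specific to E10.5 (6.25%, 1.11 to 28.3%, all regions 35.0%). At their starts, Foxo3 scored 3100 and 2317, Foxo6 2487 and 1443, and Foxo1 1599 and 664. Foxo1 supplied 4 of the 7 E9.5-specific regions. An intronic Foxo3 region 73.0 kb downstream of a start (chr10:41923018-41924074 at E9.5) went the other way, from 101.4 to 389, 57.8 points higher at E10.5. Foxh1, the partner of SMAD2 and SMAD3 in Nodal signalling, had the smallest stretch of genome and 2 regions at each stage, all shared. The region within 2.5 kb of the Foxh1 start was centred 1.64 kb (E9.5) and 1.70 kb (E10.5) upstream, nearer to the start of Ppp1r16a. It scored 915 and 295, a difference of -21.1 points.

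Of the regions of genes expressed in most tissues, 5 of 24 in each list were stage-specific (20.8%, 9.24 to 40.5%), an interval that holds the 30.1% and 35.0% of all regions. Foxm1, a driver of mitotic genes, scored 1942 and 1384 at its start, at percentiles 92.4 and 91.6. Foxj3 scored 2127 and 991, and both genes share the region with a neighbouring start. Foxk2 scored 1725 and 567, and Foxk1, which like Foxk2 recruits the Sin3 corepressor, scored 1170.2 and 774. Foxn2 scored 3100 and 2826, and Foxn3, of the cell cycle checkpoint, 3004 and 2211. Foxj2 scored 1255 and 997 at its start, and the region 8.63 kb upstream of it (chr6:122760071-122762536 at E9.5) was at the limit of 3100 in both lists.

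Around these broadly expressed genes, single distal regions nevertheless differed widely. An E9.5-specific region 29.9 kb upstream of Foxk1 (chr5:142846879-142848297) scored 615, and lay 2.55 kb from an E10.5 region. Near it, a shared region 20.8 kb upstream (chr5:142856263-142856973) went from 78.8 to 309, a gain of 56.5 points. Upstream of Foxn2, a shared region 115 kb away (chr17:88724018-88726337) had the largest difference when each shared E9.5 Fox region was set against its best-scoring E10.5 partner, with 1009 at E9.5 and 106 at E10.5, -69.0 points. At Foxn3, a region 130 kb upstream (129.874 kb, chr12:100817231-100819086) was E10.5-specific with a score of 932.

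**Figure D5:**
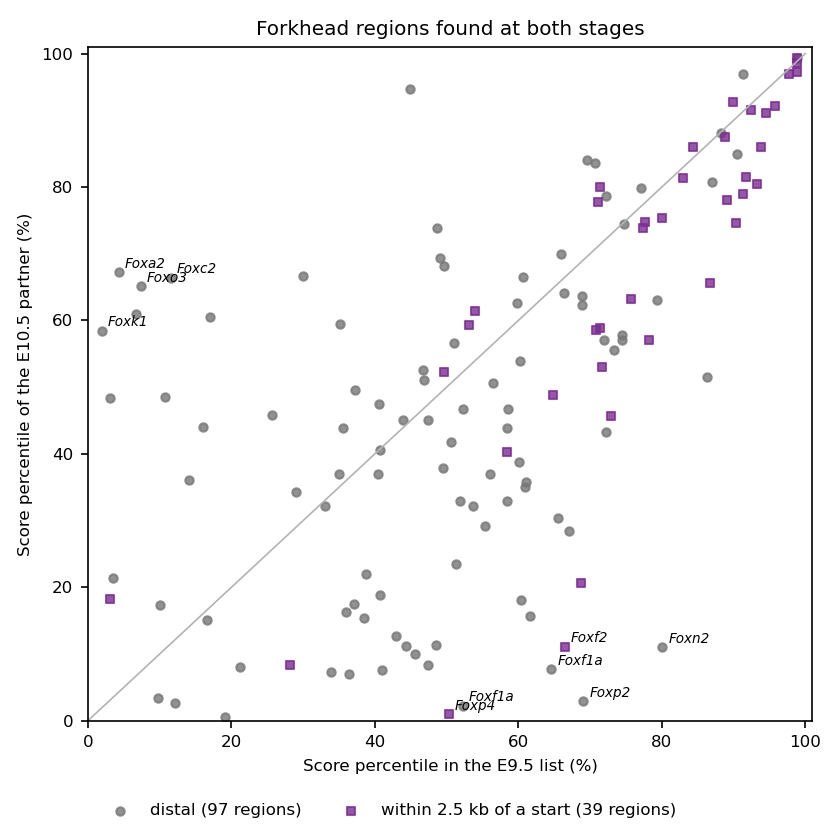
Score percentile of each of the 136 shared E9.5 Fox regions (horizontal axis, %) against that of its best-scoring E10.5 partner (vertical axis, %), with a line of equality and the regions that differ most named by gene. Promoter-proximal regions (squares) follow the line more closely than distal ones (circles), and 90 points lie below it.

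Among the 136 shared regions as a whole, 90 had a lower percentile at E10.5 and 46 a higher one. The median difference was -5.73 points (95% interval of the median -11.9 to -1.67), and over all 29208 shared autosomal regions it was -0.02. For the 97 distal ones it was -5.84 points (-14.5 to -0.16, 60 lower and 37 higher), while over all shared distal regions it was 3.97. For the 39 promoter-proximal ones it was -4.67 points (-12.6 to -1.28), against -1.65. These intervals treat regions of 1 gene as independent, and the distal one ends close to no difference. The median Fox difference was thus negative in both classes, and its distance from that of all regions was the greater in the distal class. Scores of the shared distal Fox regions were only loosely related between the stages (Spearman rho 0.351), and those of promoter-proximal ones closely so (0.887). Over all shared regions the rho was 0.476 for distal and 0.866 for promoter-proximal ones, so this contrast was not particular to the family.

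Distal Fox regions differed from the rest of the lists in base composition and position. Their GC content had medians of 54.2% (E9.5) and 51.2% (E10.5), against 50.8% and 47.2% for all distal regions. The E10.5-specific ones had a median of 45.5%, below the 56.0% of the shared distal Fox regions of that list, and all E10.5-specific distal regions had 44.2%. They also lay far from the starts, at a median distance of 104 kb, against 64.1 kb for all such regions and 40.7 kb for the E9.5-specific Fox regions. Of these 53 E10.5-specific regions, however, 15 belonged to Foxa2 and lay 63.4 to 336 kb away. The median without that gene was not taken, so the distance cannot be read as a trait of the whole family. Stage-specific shares were also taken below and above a GC content of 50%. Below 50% GC, 30 of 54 distal Fox regions were E9.5-specific (55.6%, 42.4 to 68.0%, all 39.3%), and 40 of 67 were E10.5-specific (59.7%, 47.7 to 70.6%, all 63.7%). At 50% or more, the E9.5-specific share was 46 of 119 (38.7%, 30.4 to 47.6%, all 41.2%) and the E10.5-specific share was 13 of 84 (15.5%, 9.27 to 24.7%, all 22.5%). The part of GC content in the stage-specific shares was not tested.

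Genes known to act with or on forkhead proteins mostly had open starts, and 62.0% of all genes had one at both stages. Of 21 such genes, among them the Foxo regulators Akt1 and Sgk1, Smad2 to Smad4, the Tle corepressors and the Foxm1 targets Plk1 and Ccnb1, 20 had a region at a start at both stages, and Gatad2b, a Foxp corepressor, had none at either. Their regions were stage-specific in 28 of 87 E9.5 cases (32.2%) and 27 of 88 E10.5 cases (30.7%), close to the 30.1% and 35.0% of all regions. Of these, the 4 Tle genes held 16 and 20.

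The tissue was checked by marker starts, which show accessibility and not expression. All 6 limb mesenchyme genes (Tbx5, Prrx1, Prrx2, Fgf10, Lmx1b and Msx1) had a start region at both stages, with best scores from 89.9 to 1923 at E9.5 and from 74.2 to 2334 at E10.5. So did all 4 somite genes (175 to 1118 and 108 to 666), the 3 neural tube genes that were matched of 4, and 2 of 4 matched vessel and blood genes, where Cdh5 and Tek had none. Gut and notochord genes had 4 of 4 in the earlier list and 3 of 4 in the later one, where T was absent. Of the hindlimb genes Tbx4, Pitx1 and Isl1, all 3 had one at E9.5 and Tbx4 and Isl1 at E10.5. The part of cells of these kinds in the Fox differences was not tested.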

How the data were processed

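Reads were aligned to mm9 by the authors with Bowtie 1.1.0, keeping unique hits, and regions were called per replicate with MACS 1.4 without control and combined over 2 replicates with MSPC (stringent p-value 1e-10, weak 1e-06). The score deposited for each region is 10 times the negative log10 of its best p-value, as the authors computed it, not scaled for depth, which is unknown here. Sex chromosomes were left out. GENCODE vM1 on NCBIM37 gave 67194 starts of 21418 autosomal coding genes. Distances were taken from region centres, and percentiles within each autosomal list. The start of a gene for base composition was that of its gene model, and each motif was searched on both strands. Genes were named by rule: the members, the highest-scoring and most different regions, and genes open at 1 stage or neither. The members and lists were chosen with earlier results of these data known. Of the members, 1 is counted in all totals and not reported here by name. Interval operations were tested on simulated intervals. Python 3.11.15, NumPy 2.4.6, pandas 2.3.3 and matplotlib 3.10.9 were used. With 1 list per stage, no test was made.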

Additional observations from a re-analysis of the deposited data

How the results depend on the processing

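No paired analysis was possible because the 2 replicates of a stage were merged into 1 list with no value per replicate, and for the same reason no replicate could be left out. Values below are for E9.5 and then E10.5 unless stated. With starts of all gene types, 125 and 109 regions were assigned to the Fox genes. Of these, 31.2% and 18.3% were stage-specific, against 30.1% and 35.0% of all regions. In the higher-scoring 50% of each list, 101 and 81 regions remained, and 45.5% were E9.5-specific. At a score of at least 120, 47.1% were E9.5-specific. With a reciprocal overlap of 50%, 37.8% were E10.5-specific. The higher-scoring 50% against the whole other list, chosen after seeing the data, gave 17.8% and 12.3%. For these score and overlap settings the shares over all regions were not taken. The 30.1% and 35.0% of the full lists are therefore no background for them. Within 5 kb of a start, 32.0% and 31.5% were promoter-proximal, and within 1 kb, 15.6% at E10.5. TGTTTAC was in 3.47% and 2.65% of distal Fox regions within 100 bp of the centre, and in 11.9% at E10.5 within 250 bp. These were 17 of 50 alternative values, and the other 33 stayed within their interval or near their count. The E9.5-specific share exceeded the E10.5-specific share in each setting in which both were taken. The causes were not tested. With unknown depth, a region missing from a list was not detectable there, which does not show closed chromatin.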
